A study of Mus musculus with 4 samples.

Results

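The acrosome formation genes are 8 mouse genes whose loss disturbs the building of the acrosome, the secretory cap over the sperm nucleus: Dpy19l2, Spata16, Pick1, Gopc, Agfg1, Zpbp, Zpbp2 and Spaca1. They were picked by gene symbol and not by a rule on measured values, but with earlier results of these data known. All 8 were present among the 22311 gene symbols of the deposited expression tables, each as a single entry per sample. Whole testes were taken at 24 days of age from Rfx2-/- mice (mutant 1 and mutant 2) and from control mice (control 1 and control 2). The sample labels give the control genotype as wild type and the strain as DBA, whereas the study's methods describe heterozygous controls on a mixed background of other strains, so the controls may carry 1 targeted allele. In the mutant allele, carried through the germline from 1 embryonic stem cell clone, the exons for the DNA-binding domain of RFX2 are replaced by a neomycin-resistance cassette in every cell of the body. Expression was given by the authors as FPKM, a fragment number scaled to the length of the gene and to the mapped fragments of the sample.

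The acrosome is built in round spermatids. Vesicles leave the trans-Golgi, fuse into a single granule on the nuclear envelope, and this granule flattens and spreads over the nucleus. When vesicle traffic, fusion or attachment to the nucleus fails, sperm with round heads and no acrosome are formed, a condition known as globozoospermia. RFX2 is a winged-helix transcription factor of spermatocytes and round spermatids that binds the X-box, a pair of inverted half-sites.

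A pair of genome stretches is shown first. Among the 8 genes, Dpy19l2 was the gene called lower in the main comparison of genotypes, a call that depended on the settings. Pick1 was the gene with an exact X-box by its first annotated start. Each is the 250 bases before the first annotated start of the gene (GENCODE vM1) in the files' build, NCBIM37 (mm9), written 5′ to 3′ on the strand of the gene. Capitals mark an exact X-box.
Dpy19l2, chr9:24500738-24500987, minus strand: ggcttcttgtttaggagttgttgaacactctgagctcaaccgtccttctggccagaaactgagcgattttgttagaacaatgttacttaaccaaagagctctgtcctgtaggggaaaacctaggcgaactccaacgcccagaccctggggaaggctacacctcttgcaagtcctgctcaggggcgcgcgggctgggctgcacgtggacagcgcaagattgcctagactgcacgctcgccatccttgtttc
Pick1, chr15:79059353-79059602, plus strand: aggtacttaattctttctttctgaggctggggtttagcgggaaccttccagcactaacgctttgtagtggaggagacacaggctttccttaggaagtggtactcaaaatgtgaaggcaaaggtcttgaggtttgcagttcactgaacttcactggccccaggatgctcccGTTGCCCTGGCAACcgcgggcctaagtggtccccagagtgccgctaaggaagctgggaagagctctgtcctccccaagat
The Pick1 sequence holds 1 X-box of 14 bases, at positions -80 to -67 from the start (chr15:79059523-79059536), whose arms match on both strands. The Dpy19l2 sequence holds none.

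The 4 samples were alike in the number of genes detected, with 12557 to 12942 symbols at an FPKM of at least 1. The files give bounds of a confidence interval for each FPKM but no fragment counts, so that no counting interval was computed here. For the 8 genes, the half-width of this interval was between 1.98% (Spata16 in mutant 1) and 6.82% (Gopc in mutant 2) of the value. Rfx2 itself had 36.7 FPKM in mutant 1, 39.8 in mutant 2, 123 in control 1 and 89.4 in control 2, which gives a log2 fold change of -1.43 (SE 0.19, adjusted p = 0.00617 from limma). This value covers the whole gene, also the exons outside the deletion, and so checks the labels only in part. Mutant 1 stood apart in markers of late germ cells. All 10 elongating spermatid markers and all 9 round spermatid markers were lower in mutant 1 than in both controls, against 2 and 0 of them in mutant 2. Over all genes tested, 25.7% were lower in mutant 1 than in both controls, and 4218 of 12985 were lower in mutant 2 than in both controls. The summed FPKM of the elongating spermatid markers was 1633 in mutant 1, 7296 in mutant 2, 8425 in control 1 and 5828 in control 2. For the round spermatid markers, which include the acrosomal gene Acrv1, it was 554 in mutant 1, 1126 in mutant 2, 1084 in control 1 and 862 in control 2. None of these markers was at 0. The paper reports that elongating spermatids were absent from mutant testes at a later age, so the list names here do not stand for counted cells of that stage. In whole testis, fewer cells of a type and less RNA per cell cannot be told apart.

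The genotypes were compared by limma, on the log2(FPKM + 1) scale, in a fit of the 12985 genes that reached 1 FPKM in 2 or more samples, and p-values were adjusted over all of them by the Benjamini-Hochberg method. All 8 acrosome formation genes passed this filter. Of the 8, 1 gene (Dpy19l2) was lower at an adjusted p under 0.05 and none was higher. Among all genes tested, 2.52% were lower and 0.308% were higher at this threshold, and without adjustment Dpy19l2 was again the single gene of the 8 with p under 0.05, where 6.68% of all genes tested were lower and 2.01% higher. The median log2 fold change was -0.017 for the 8 genes and 0.032 for all genes tested.

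Dpy19l2 encodes a multi-pass membrane protein of the inner nuclear envelope of spermatids that holds the acrosome to the nucleus. Its FPKM was 30.0 in mutant 1, 23.3 in mutant 2, 62.9 in control 1 and 56.5 in control 2. Neither mutant value reached either control value, an order that 15.2% of all genes tested showed. Mutant 1 had 50.3% and mutant 2 had 39.0% of the control mean. On the log2(FPKM + 1) scale the fold change was -1.14 (SE 0.18, 95% interval -1.56 to -0.72, adjusted p = 0.0145 from limma). As a ratio this is 0.45, with an interval from 0.34 to 0.61.

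The difference in Dpy19l2 was larger than the spread between samples of a genotype, but its call depended on the settings. The log2 fold change stayed between -1.32 and -0.97 in all 12 alternatives, and the adjusted p was under 0.05 in 6 of them and ran from 3.14e-07 (without mutant 1, a fit with 1 residual degree of freedom) to 0.186. It was above the threshold with no filter on low values (0.0793), with median-ratio scaling (0.0505), with quantile normalization (0.0637), with a replicate block that joins mutant 1 to control 2 and mutant 2 to control 1 (the crossed block, 0.0643), without control 1 (0.186) and without control 2 (0.0966). Of the alternatives that kept the call, those without mutant 1, without mutant 2 and with the replicate block from the labels leave 1 residual degree of freedom. An exact permutation test of 2 samples against 2 cannot go below p = 0.333.

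Scaling between samples was set aside by dividing Dpy19l2 by the geometric mean FPKM of the other 7 genes in the same sample. This ratio was 0.475 in mutant 1, 0.347 in mutant 2, 0.939 in control 1 and 0.912 in control 2. The geometric mean itself was 63.2 FPKM in mutant 1, 67.1 in mutant 2, 66.95 in control 1 and 61.96 in control 2, with overlap between the genotypes.

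**Figure D1:**
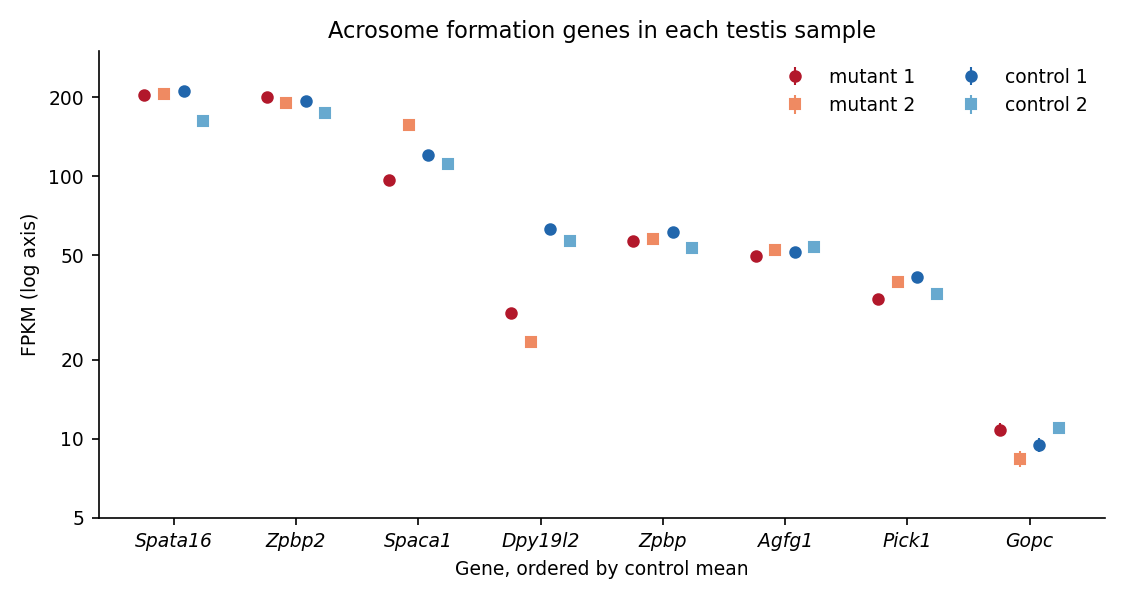
FPKM of the 8 acrosome formation genes (log axis) in mutant 1, mutant 2, control 1 and control 2, with bars for the deposited confidence bounds, which are mostly smaller than the symbols. The mutant and control samples are separated for Dpy19l2 (23.3 to 30.0 against 56.5 to 62.9) and overlap for the other 7 genes.

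In NCBIM37 the Dpy19l2 gene spans chr9:24361492-24500737 (minus strand), with 1 annotated coding transcript of 22 exons. Cypt4, a gene of the cysteine-rich perinuclear theca family, lies inside it on the opposite strand (chr9:24429629-24430271) and shares no base with its exons. The FPKM of Cypt4 was 115 in mutant 1, 285 in mutant 2, 233 in control 1 and 196 in control 2, so that its genotypes overlapped and its low sample was mutant 1. Whether the libraries kept the strand is not given in the sources used here. Its relative Dpy19l1 lies on the same chromosome from 24216220 to 24307584 and had 15.6 and 15.2 FPKM in mutants against 14.3 and 14.6 in controls (log2 fold change 0.09, SE 0.17, adjusted p = 0.9999 from limma). Dpy19l3 and Dpy19l4, the other members of this family of C-mannosyltransferase relatives, were at or below 2.99 FPKM in every sample, with log2 fold changes of 0.08 and 0.08. None of the 3 relatives passed the test. Within 1 Mb of Dpy19l2, the 4 other genes that were tested had log2 fold changes from -0.33 (Herpud2) to 0.09 (Dpy19l1), and none was called.

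The next 4 genes act in the traffic of Golgi-derived vesicles to the acrosome. Pick1 encodes a PDZ and BAR domain protein found on these vesicles, and lies on chromosome 15 from 79059603 to 79087104 on the plus strand, with 13 exons. Its FPKM was 33.9 in mutant 1, 39.4 in mutant 2, 41.4 in control 1 and 35.5 in control 2, and mutant 1 was the lowest sample while mutant 2 lay between the controls. The log2 fold change of Pick1 was -0.07 (SE 0.17, 95% interval -0.47 to 0.33, adjusted p = 0.9999 from limma). A pseudogene annotated in GENCODE vM1 shares 519 bases with the exons of Pick1. Its symbol has no entry among the deposited values, so any reads from it could not be told from those of Pick1 there.

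Gopc encodes a trans-Golgi protein with a PDZ domain that binds PICK1 (chromosome 10, 52056891 to 52101881, minus strand, 9 exons). It had the lowest level of the 8 genes, with 10.8 FPKM in mutant 1, 8.41 in mutant 2, 9.49 in control 1 and 11.0 in control 2. Here mutant 2 was the lowest sample and mutant 1 lay between the controls. For Gopc the log2 fold change was -0.09 (SE 0.21, 95% interval -0.58 to 0.40, adjusted p = 0.9999 from limma).

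Agfg1, once named Hrb, encodes an Arf GTPase-activating protein domain protein on the cytosolic face of proacrosomal vesicles, where it is needed for their fusion (chromosome 1, 82836058 to 82892850, plus strand, 13 exons). Its FPKM was 49.6 in mutant 1, 52.4 in mutant 2, 51.3 in control 1 and 53.7 in control 2. The genotypes overlapped, and mutant 1 was the lowest sample (log2 fold change -0.04, SE 0.15, 95% interval -0.40 to 0.32). Its relative Agfg2 had 13.5 and 11.0 FPKM in mutants against 8.75 and 12.1 in controls, again with overlap. Ica1, whose protein is a partner of PICK1, had 15.7 FPKM in mutant 1, 25.4 in mutant 2, 25.3 in control 1 and 22.2 in control 2, and was low in mutant 1 alone.

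Spata16 encodes a Golgi protein of spermatids that is mutated in a familial form of globozoospermia (chromosome 3, 26536542 to 26882134, plus strand, 11 exons). It had the highest mean of the 8 genes in both genotypes, with 203 FPKM in mutant 1, 205 in mutant 2, 211 in control 1 and 163 in control 2, where Zpbp2 was higher. The mutant samples lay between the controls, and the spread of the control samples exceeded that of the mutant samples. Spata16 had a log2 fold change of 0.14 (SE 0.19, 95% interval -0.31 to 0.58, adjusted p = 0.9999 from limma).

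The last 3 genes encode proteins of the acrosome itself. Zpbp encodes a zona pellucida binding protein of the acrosomal matrix (chromosome 11, 11179629 to 11362411, minus strand, 8 exons). Its FPKM was 56.7 in mutant 1, 57.7 in mutant 2, 61.2 in control 1 and 53.1 in control 2, with both mutant values between the controls (log2 fold change 0.0053, SE 0.16, 95% interval -0.37 to 0.38). The annotated gene 4930415F15Rik runs on the opposite strand and shares 223 bases with the exons of Zpbp. At 13.0 to 24.4 FPKM it was lower than Zpbp in each sample.

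Zpbp2, the paralog of Zpbp, was about as abundant as Spata16 (chromosome 11, 98412411 to 98419979, plus strand, 8 exons). It had 200.5 FPKM in mutant 1, 190.1 in mutant 2, 194 in control 1 and 173 in control 2. Mutant 1 was the highest and control 2 the lowest sample, and mutant 2 lay between the controls. Zpbp2 had a log2 fold change of 0.09 (SE 0.17, 95% interval -0.31 to 0.49, adjusted p = 0.9999 from limma).

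Spaca1 encodes a membrane protein of the acrosome (chromosome 4, 34111849 to 34137166, minus strand, 8 exons). The gene had 96.2 FPKM in mutant 1, 157 in mutant 2, 120 in control 1 and 112 in control 2. Mutant 1 was the lowest and mutant 2 the highest of the 4 samples, on opposite sides of both controls. The gap between the mutant samples was -0.70 on the log2 scale (mutant 1 minus mutant 2), and only 8.39% of all genes tested had a larger gap. The controls differed by 0.10. The log2 fold change of Spaca1 was 0.09 (SE 0.24, 95% interval -0.47 to 0.64, adjusted p = 0.9999 from limma). It was 0.44 without mutant 1 and -0.26 without mutant 2, so that the sign rests on which mutant sample is read. The round spermatid markers also differed between the mutant samples in this direction, and their part in the values of Spaca1 was not tested.

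The 95% intervals of the 7 genes that were not called ran from ratios of at least 0.67 (Gopc) to at most 1.56 (Spaca1). A change of the size seen for Dpy19l2, a ratio of 0.45, lay outside each of them. None of the 7 genes was called in any of the 12 alternatives.

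**Figure D2:**
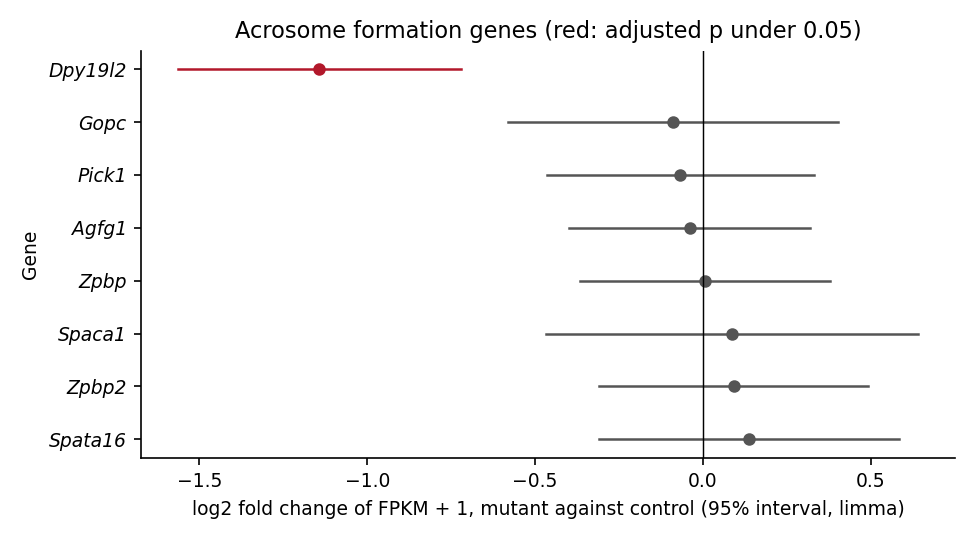
The log2 fold change of each gene, mutant against control, on the log2(FPKM + 1) scale, as points with 95% intervals from limma, and with genes called at an adjusted p under 0.05 in red. Dpy19l2 stands at -1.14 with an interval that ends at -0.72, and the intervals of the other 7 genes all span 0.

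The order of levels differed between the genotypes at 1 place. In the controls, Spata16 (187 ± 34.1 FPKM, SD, n = 2) and Zpbp2 (183 ± 14.3) overlapped in their ranges at the top, followed by Spaca1 (116 ± 5.80). Dpy19l2 (59.7 ± 4.50), Zpbp (57.1 ± 5.77) and Agfg1 (52.5 ± 1.74) formed a middle group in which neighbours overlapped. Pick1 (38.5 ± 4.16) and Gopc (10.2 ± 1.08) came last. In the mutants the order was Spata16 (204 ± 1.37), Zpbp2 (195 ± 7.36), Spaca1 (126 ± 42.8), Zpbp (57.2 ± 0.688), Agfg1 (51.0 ± 1.98), Pick1 (36.7 ± 3.92), Dpy19l2 (26.7 ± 4.74) and Gopc (9.62 ± 1.72), with no overlap between neighbours. Dpy19l2 thus moved from the fourth to the seventh place, and the other genes kept their order among themselves. In the whole table, Dpy19l2 exceeded 93.5% to 93.7% of the gene symbols in the control samples and 84.6% to 87.8% in the mutant samples.

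Each mutant sample was then set against the control mean. The round spermatid markers had a median log2 difference of -0.68 in mutant 1 and 0.31 in mutant 2, and the elongating spermatid markers -1.26 and 0.22. For the 8 acrosome formation genes these medians were -0.043 and 0.028. Dpy19l2 was -0.97 in mutant 1 and -1.32 in mutant 2, whereas the spermatid markers had their lower medians in mutant 1. The part of these markers in the values of Dpy19l2 was not tested. Spermatocyte markers had medians of 0.25 and -0.044, and Sertoli cell markers 0.27 and 0.019. Leydig cell markers varied in summed FPKM from 136 to 425 within and across genotypes, with medians of 0.28 and -0.055, and the 6 macrophage markers had medians of 0.048 and -0.30. Spermatogonial markers stood at 0.071 and -0.029. None of these 7 marker lists held a gene called in the comparison of genotypes, where 2.52% of all genes tested were lower and 0.308% higher. The absence of calls does not show equal levels. The log2 fold changes of the elongating spermatid markers ran from -1.89 (Prm1, SE 0.83) to 0.18 (Oaz3, SE 0.39).

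**Figure D3:**
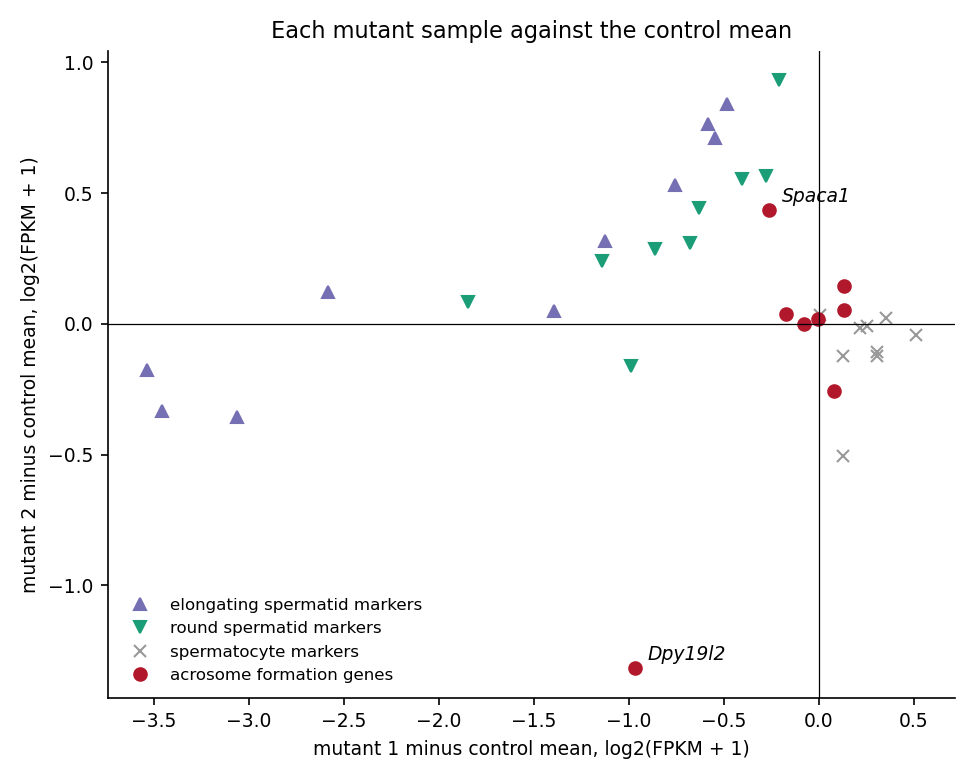
Difference from the control mean on the log2(FPKM + 1) scale in mutant 1 (horizontal axis) and mutant 2 (vertical axis), each point a gene, for the 8 acrosome formation genes and for markers of elongating spermatids, round spermatids and spermatocytes. Dpy19l2 lies at -0.97 and -1.32, low in both mutant samples, and Spaca1 lies at -0.26 and 0.44. The spermatid markers are low in mutant 1, and 2 of the 10 elongating spermatid markers (Prm1 and Tnp1) are below both controls in mutant 2 too.

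A further list of 24 genes with a known or proposed part in acrosome biogenesis, or whose proteins bind those of the 8 genes, was examined in the same fit. All 24 were tested, and limma called none lower or higher. Without adjustment, none had p under 0.05 either, against the 6.68% lower and 2.01% higher of all genes tested. Their median log2 fold change was -0.032. In 2 genes (Smap2 and Ccdc62) both mutant samples were below both controls, and in 3 genes (Gba2, Tmf1 and Becn1) both were above, an order seen in 15.2% and 16.3% of all genes tested.

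Of these genes, Csnk2a2 and Golga3 stayed within a narrow range in all 4 samples, and Ica1l, Spink2 and Vps54 varied more. Csnk2a2, a catalytic subunit of casein kinase 2 whose loss causes globozoospermia, had 30.1 and 27.8 FPKM in mutants against 28.0 and 26.3 in controls. Golga3, a golgin, had 42.7 and 47.2 FPKM in mutants against 45.0 and 46.6 in controls. Ica1l, whose protein binds PICK1, had 20.8 and 19.6 FPKM in mutants against 23.6 and 20.7 in controls. Samples of the genotypes overlapped for these genes. Spink2, an inhibitor of acrosomal proteases, was the most abundant of the list, with 521 and 510 FPKM in mutants against 582 and 471 in controls. Vps54, a subunit of a Golgi tethering complex that is mutated in the wobbler mouse, had 7.25 and 5.30 FPKM in mutants against 5.02 and 6.24 in controls.

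Other genes of the list differed between the mutant samples. Actl7a, an actin-like protein of the subacrosomal layer, had 64.0 FPKM in mutant 1 and 146 in mutant 2, against 135 and 108 in the controls. Actl9 had the lowest log2 fold change of the list, -0.66 (SE 0.31, adjusted p = 0.667 from limma), with 54.8 FPKM in mutant 1, 109 in mutant 2, 140 in control 1 and 107 in control 2. Fam71f1 had 26.3 FPKM in mutant 1 and 74.3 in mutant 2, against 68.9 and 54.0 in the controls. Galntl5 and Cylc1 showed the same order of the mutant samples, with 53.0 and 134 FPKM for Galntl5 and 7.80 and 17.1 FPKM for Cylc1. In each of these 5 genes mutant 1 was the lowest of the 4 samples, as in the round spermatid markers, whose part in these values was not tested. Acrbp, the binding protein of proacrosin, had the highest log2 fold change, 0.34 (SE 0.23, adjusted p = 0.9999 from limma).

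**Figure D4:**
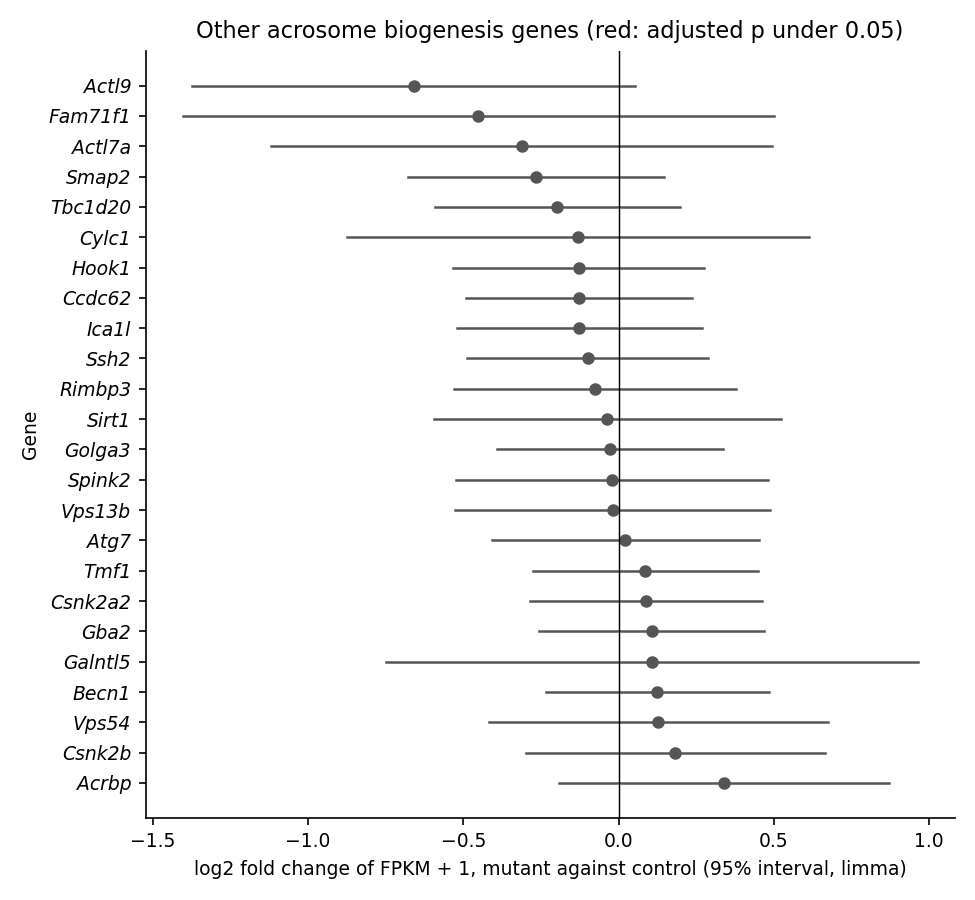
The log2 fold change, mutant against control, of the 24 other acrosome biogenesis genes on the log2(FPKM + 1) scale, with 95% intervals from limma, where red would mark genes called at an adjusted p under 0.05. No gene is called, and the values run from -0.66 for Actl9 to 0.34 for Acrbp.

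The contents and membranes of the acrosome were followed with 20 genes found in the files, among them the protease Acr, the hyaluronidase Spam1 and the fusion factor Izumo1. In limma 1 of the 20 was lower at an adjusted p under 0.05 and none was higher (2.52% and 0.308% of all genes tested). This gene was Tmem190, a small acrosomal membrane protein, with 9.13 FPKM in mutant 1, 24.1 in mutant 2, 113 in control 1 and 94.8 in control 2. All mutant values were far below the controls, and the log2 fold change was -2.71 (SE 0.37, adjusted p = 0.00662 from limma), although its adjusted p was 0.104 with no filter and 0.0810 with median-ratio scaling. The size of the Tmem190 difference rests on which mutant sample is read, at -2.06 without mutant 1 and -3.37 without mutant 2. The highest log2 fold change was that of Lyzl4, 0.33 (SE 0.31, adjusted p = 0.9999 from limma). The median over the 20 genes was -0.09. Mutant 1 was below mutant 2 in 18 of the 20 genes (31.9% of all genes tested), and below both controls in 14 (25.7% of all genes tested).

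The search for X-boxes, with arms of 6 bases and a gap of 0 to 3 bases, covered both strands up to 1000 bases on either side of the most upstream annotated start. Of the 8 genes, 1 (Pick1) held an exact match, and 580 of 12620 tested genes did (4.60%). In the 300 bases from 250 upstream to 50 downstream, these numbers were 1 of 8 and 1.97% of the tested genes. When 1 mismatch was allowed, 5 of the 8 genes and 47.9% of the tested genes held a match within 1000 bases, and 3 of the 8 genes (37.5%) and 12.8% of the tested genes held one in the 300 bases. Among the 309 genes called lower that could be searched, 16.5% held an exact match and 70.9% a match with 1 mismatch within 1000 bases, and 10.7% and 39.5% did in the 300 bases. Dpy19l2, Zpbp and Zpbp2 held none at this setting, which says only that these letters are not in the window.

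The looser matches are listed here, all of them in genes that were not called in the comparison of genotypes. Arms are in capitals and the gap in lower case, each 5′ to 3′ on the strand of the match, with the distance from the start site.
Agfg1, position -128 to -115, chr1:82835930-82835943: GTGGCCgcAGTGAC
Spaca1, position -159 to -145, chr4:34137311-34137325: GTTAACccaAGCAAC
Gopc, position -663 to -650, chr10:52102531-52102544: GTTACCcaAGCAAG
Spata16, position 323 to 337, chr3:26536864-26536878: GTCGCCtttAGGAAC
The Spaca1 site also reads as a match of 14 bases when its arms are set with a gap of 2. For Spaca1 the annotated coding starts spread over 9151 bases and for Pick1 over 640, and the window follows the most upstream of them. Beside the exact site shown at the outset, Pick1 held a second match with 1 mismatch, at position 930 to 943 on the opposite strand. A match to these letters is a description of the sequence and not a measurement of binding.

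**Figure D5:**
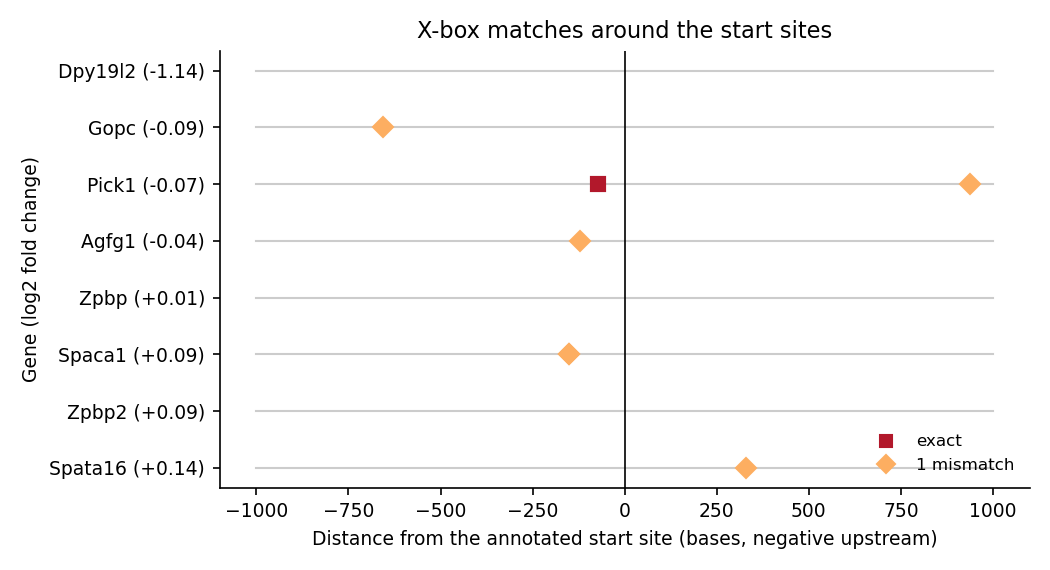
X-box matches by distance in bases from the start site (horizontal axis, up to 1000 each way) in the 8 genes, with exact matches as squares and matches with 1 mismatch as diamonds, and the log2 fold change of each gene beside its name. Pick1, at -0.07, has the exact match, and Dpy19l2, at -1.14, has none.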

How the data were processed

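RNA of whole testes was measured in 2 mutant and 2 control samples. Per the study's methods and the submitters' processing notes, reads were mapped to mm9 by TopHat2 2.0.6 and transcripts assembled with Cufflinks. The authors deposited 1 table per sample, with FPKM by gene (scaled to length and mapped fragments) and confidence bounds. The sum of FPKM per sample ran from 360029 to 390774. Entries that share a symbol were summed, a pseudocount of 1 was added and log2 was taken, so that fold changes of low genes are understated. limma 3.58.1 in R 4.3.3 (lmFit, eBayes with a trend, two-sided, Benjamini-Hochberg adjustment, threshold 0.05) was fitted over all genes that reached 1 FPKM in 2 or more samples. The functions were tested on simulated data. The fit rests on 1 spread per gene from 4 samples, and the labels number the replicates without naming animals, whereas the paper describes them as biological replicates. The study's Cuffdiff test was not repeated. Figures were drawn with matplotlib 3.10.9.

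The genes and lists were chosen with earlier results of these data known. Named were the 8 genes, Rfx2, their relatives, the other acrosome biogenesis genes and, of 21 listed genes of acrosomal contents, those called and the extremes. The spermatid marker Acrv1 and genes next to or overlapping the 8 are also named. Eqtn was found under the RIKEN symbol 4930579C15Rik, and the Sertoli cell marker Rhox5 was not analysed here. X-boxes and positions were read from NCBIM37 with GENCODE vM1 for genes with a single annotated locus. Alternatives were a pseudocount of 0.1, no filter, a filter at 5 FPKM, median-ratio scaling, quantiles made equal, eBayes with no trend, a replicate block, each replicate left out, and, chosen after seeing the data, a crossed replicate block.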

Additional observations from a re-analysis of the deposited data

How the results depend on the processing

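Dpy19l2 lost its call in the 6 alternatives given in the report, so that 0 of the 8 genes were called lower with no filter, median-ratio scaling, quantile normalization and the crossed replicate block, and 0 to 1 when a replicate was left out; its log2 fold change was then between -1.32 and -0.97. Over all genes, 327 were called lower and 40 higher. These numbers were 199 and 17 with no filter, 202 and 17 with a filter at 5 FPKM, 216 and 16 with median-ratio scaling, and 525 and 70 with the replicate block from the labels. With a replicate left out, they ran from 167 to 948 and from 13 to 162. The cause was not tested. Leaving out a replicate or adding a block leaves 1 residual degree of freedom, the lone sample is assumed to vary like the other genotype, and some p-values are then implausibly small.

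Deviations of same-numbered samples correlated at -0.15 across genes. With 1 difference between samples per genotype, this value cannot show whether the numbers pair the samples. With the replicate block 1 of the 8 genes was called lower (Dpy19l2, adjusted p = 2.75e-05), and with the crossed pairing none.

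Of the other acrosome biogenesis genes, 0 to 3 were called lower and 0 to 1 higher when a replicate was left out. Without mutant 2 these were Actl7a, Actl9 and Fam71f1 (log2 fold changes -0.90, -1.15 and -1.18), and without mutant 1 Galntl5 was higher (0.77). The same fits gave the upper ends of the ranges over all genes stated above, without mutant 2 for lower genes and without mutant 1 for higher genes. These calls are thus not read as a feature of acrosome genes. The median of the 8 genes ran from -0.043 to 0.074 and was 0.074 without control 1. Among genes that were never called, signs changed: Zpbp was -0.015 with median-ratio scaling, and with a replicate left out values ran from -0.17 to 0.041 for Pick1, -0.25 to 0.077 for Gopc, -0.096 to 0.11 for Zpbp, -0.26 to 0.44 for Spaca1 and -0.050 to 0.32 for Spata16. Rfx2 was above the threshold with no filter (adjusted p = 0.0607), median-ratio scaling (0.0730) and without control 1 (0.0628), all from limma. Tmem190 was above it also with quantile normalization (0.0558) and without either control (0.0993 and 0.0596).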

Other observations

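Besides Tmem190, 3 of the 20 acrosomal content genes had both mutant samples below both controls, an order that 15.2% of all genes tested showed, and they are named here after their values were seen. Spaca7, an acrosomal protein, had 31.7 and 45.3 FPKM in mutants against 78.5 and 61.0 in controls (log2 fold change -0.85, SE 0.22, adjusted p = 0.121 from limma). Cd46, a complement regulator of the inner acrosomal membrane, had 1.31 and 4.26 FPKM in mutants against 7.22 and 5.29 in controls (log2 fold change -1.04, SE 0.38, adjusted p = 0.377 from limma). Pcsk4, a proprotein convertase of spermatids, had 31.3 and 38.4 FPKM in mutants against 60.2 and 39.4 in controls. None of the 3 passed the test.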
